A study of Mus musculus with 24 samples.

Results

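Acetylcholine is cleared and sensed by a small group of proteins. Cholinesterases split it in the synaptic cleft, muscarinic receptors couple it to G proteins, and nicotinic receptors are ion channels that it opens. In the forebrain it is released mainly by projections from the basal forebrain, so that most cells of hippocampus and cortex sense acetylcholine without making it. The 10 genes followed here were chosen by name out of 55487 counted gene identifiers. They are the cholinesterases Ache and Bche, the muscarinic receptors Chrm1, Chrm2, Chrm3 and Chrm4, and the nicotinic subunits Chrna4, Chrna5, Chrna7 and Chrnb2.

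RNA-seq of dissected brain tissue was done in wild-type mice after olfactory bulbectomy (OBX), the surgical removal of the olfactory bulbs, and in sham-operated mice of the same genotype. The hippocampus had 4 bulbectomy and 5 sham libraries, the cortex 3 and 5, and the cerebellum 2 and 5. The 24 libraries of the study hold no bulbectomy replicate 3 of the cortex and no bulbectomy replicate 3 or 4 of the cerebellum. The sources used here give no strain, sex, age or time from surgery to dissection. The labels do not say whether libraries of a group came from separate animals, so p-values measure the spread between these libraries.

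Reads assigned to genes numbered 8145624 to 20230673 per library, apart from 3255661 in hippocampus sham 1 and 138963332 in hippocampus sham 4. Levels are CPM, reads scaled to a common library total. Hippocampus sham 1 and 2 stood apart from the rest of their group. Their markers of striatal medium spiny neurons averaged 7.19 and 7.50 log2 CPM, against 2.88 to 3.36 in sham 3 to 5, and 3.26 to 3.69 in the bulbectomy libraries. All 11 striatal markers were detected in each hippocampus library. Hippocampus sham 2 also had the lowest level of dentate granule cell markers, 2.07 log2 CPM. In the cerebellum, sham 1 and 2 had the highest levels of cortical layer markers, 1.10 and 1.41 log2 CPM, against 0.25 to 0.54 in the other cerebellum libraries. Values without these libraries are given beside the results they changed, and the pairs left out were chosen with earlier results of these data known.

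Promoter sequences are shown for acetylcholinesterase and for Chrna4 and Chrnb2, because Ache was the gene called between sham hippocampus and sham cortex, and the partner subunits Chrna4 and Chrnb2 differed in opposite directions between tissues. The sequences are from RefSeq on GRCm38.p6 and run from 250 bases before to 50 bases after the RefSeq transcript start, 5′ to 3′ on its own strand. The starts used for Ache and Chrna4 lie inside the gene extents given for them further on, and that of Chrnb2 coincides with its annotated start. For Ache, on the plus strand at chr5:137288004-137288303, capitals mark the letters GCGGGGGCG, a sequence recognised by Egr1. For Chrna4, on the minus strand at chr2:181039128-181039427, and Chrnb2, on the minus strand at chr3:89764583-89764882, capitals mark the GC box GGGCGG, or CCGCCC where it lies on the other strand.
Ache: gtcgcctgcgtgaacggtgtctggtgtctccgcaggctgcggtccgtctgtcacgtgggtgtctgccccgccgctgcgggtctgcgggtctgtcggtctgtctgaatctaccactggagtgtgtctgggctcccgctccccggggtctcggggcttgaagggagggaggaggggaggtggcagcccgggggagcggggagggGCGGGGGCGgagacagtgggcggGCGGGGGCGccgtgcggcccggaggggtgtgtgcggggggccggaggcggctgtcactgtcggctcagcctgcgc
Chrna4: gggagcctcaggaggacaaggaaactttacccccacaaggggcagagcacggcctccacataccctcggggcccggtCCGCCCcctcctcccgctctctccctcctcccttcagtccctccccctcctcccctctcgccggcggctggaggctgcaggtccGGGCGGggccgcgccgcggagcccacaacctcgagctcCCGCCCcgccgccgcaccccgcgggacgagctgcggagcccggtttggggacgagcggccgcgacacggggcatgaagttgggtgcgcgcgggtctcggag
Chrnb2: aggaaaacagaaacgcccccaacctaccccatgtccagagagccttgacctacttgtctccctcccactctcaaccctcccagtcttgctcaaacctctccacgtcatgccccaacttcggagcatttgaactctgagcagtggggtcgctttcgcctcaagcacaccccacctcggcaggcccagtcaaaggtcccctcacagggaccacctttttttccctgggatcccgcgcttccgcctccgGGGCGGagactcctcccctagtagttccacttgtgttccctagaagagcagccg
The Ache promoter held 2 matches to GCGGGGGCG, while 2.91% of 32851 promoters held at least 1 match on either strand and 0.283% held 2 or more. The same promoter held 4 GC boxes, 3 of which overlap the Egr1 letters. Chrna4 held 3 GC boxes and Chrnb2 held 1, and 35.7% of promoters held at least 1. These letter matches describe the sequence and were not tested for binding.

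Ache encodes acetylcholinesterase, which ends cholinergic transmission by splitting acetylcholine. The gene lies on chromosome 5 of GRCm38 from 137287519 to 137294466 (ENSMUSG00000023328). In the hippocampus its levels were 110.8, 168.7, 114.8 and 139.8 CPM in bulbectomy libraries, against 90.3, 101.7, 113.2, 58.7 and 91.3 CPM in sham libraries. Bulbectomy libraries were the higher group, and the groups overlapped only at sham 3, which lay above bulbectomy 1. The log2 fold change was 0.58 ± 0.20 (SE), with an unadjusted p of 0.0104 and an adjusted p of 0.128 in edgeR's quasi-likelihood test. It stayed between 0.41 and 0.66 when single libraries were left out and was 0.65 ± 0.22 without sham 1 and 2.

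In the cortex, Ache stood at 48.8, 127.6 and 74.0 CPM in bulbectomy libraries 1, 2 and 4, against 41.7, 54.1, 53.9, 40.4 and 48.4 CPM in sham libraries. Bulbectomy 2 and 4 lay above every sham library and bulbectomy 1 lay among them. The log2 fold change of Ache was 0.79 ± 0.25 with an adjusted p of 0.687 in edgeR. Single libraries decided this value. Without bulbectomy 1 the change in Ache was 1.05 and passed the test (adjusted p = 0.0230), and without bulbectomy 2 it was 0.35. Weighting libraries by quality with limma voom also called Ache in the cortex (log2 fold change 1.19, adjusted p = 0.0312). Over all genes 573 of 15103 were called without bulbectomy 1, and 252 of 14847 with limma voom, against 3 in the main fit. In the same libraries Slc18a3, the vesicular acetylcholine transporter, was listed at 0.658, 2.72 and 1.64 CPM in bulbectomy libraries, against 0.454 to 1.04 CPM in sham libraries. Its log2 fold change was 1.05 ± 0.49 (adjusted p = 0.844 in edgeR). Slc18a3 is also 1 of 8 cholinergic neuron markers. Their summed level was 4.47 to 5.93 CPM in bulbectomy cortex and 2.53 to 3.78 CPM in sham cortex, with 1 to 2 and 1 to 4 of them at 0 per library. Their mean log2 CPM overlapped, at -1.26 to -0.92 after bulbectomy and -1.85 to -1.21 after sham surgery. Of the 8 markers 2 were tested and 0 called, against 0.0202% of all genes. The part of these markers in the Ache values was not tested.

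In the cerebellum, Ache was at 95.1 and 99.9 CPM in the bulbectomy libraries, against 59.6 to 127.0 CPM in sham libraries, so the groups overlapped fully. The change in Ache was 0.16 ± 0.24 on the log2 scale. The effect of bulbectomy on Ache was not shown to differ between tissues. Its hippocampal effect minus its cortical effect was -0.25 ± 0.35, with an interval of -0.95 to 0.44.

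Between tissues of sham-operated mice, Ache averaged 91.1 ± 20.4 CPM in hippocampus, 47.7 ± 6.47 CPM in cortex and 87.4 ± 25.7 CPM in cerebellum (SD, n = 5 each). The cortex was the low tissue, and its highest library (54.1 CPM) lay below the lowest of hippocampus (58.7 CPM) and of cerebellum (59.6 CPM). Ache was 0.91 ± 0.19 higher in hippocampus than in cortex on the log2 scale (adjusted p = 0.0160) and lower in cortex than in cerebellum (log2 fold change -0.78 ± 0.19, adjusted p = 0.00473). Hippocampus and cerebellum were not told apart (0.13 ± 0.19, interval -0.25 to 0.51). Without hippocampus sham 1 and 2 the hippocampus-to-cortex difference of Ache was 0.83 ± 0.23 and no longer passed (adjusted p = 0.0704).

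Bche encodes butyrylcholinesterase, a second enzyme that splits acetylcholine and other choline esters. It was a low gene in all libraries, with 0 to 37 reads per library apart from the 130 reads of the deepest library. In the hippocampus Bche stood at 0.245 to 0.969 CPM in bulbectomy libraries, against 0.347 to 2.07 CPM in sham libraries. In the cortex the ranges were 0.0973 to 0.724 CPM after bulbectomy and 0 to 1.10 CPM after sham surgery. Bche did not pass the filter on low counts in these bulbectomy comparisons. In the cerebellum its change of -1.09 ± 1.39 was smaller than its error. Per kilobase of exon, Ache exceeded Bche by a wide margin in all groups: in sham hippocampus Ache averaged 19.7 ± 4.40 CPM per kb and Bche 0.132 ± 0.103 CPM per kb.

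**Figure D1:**
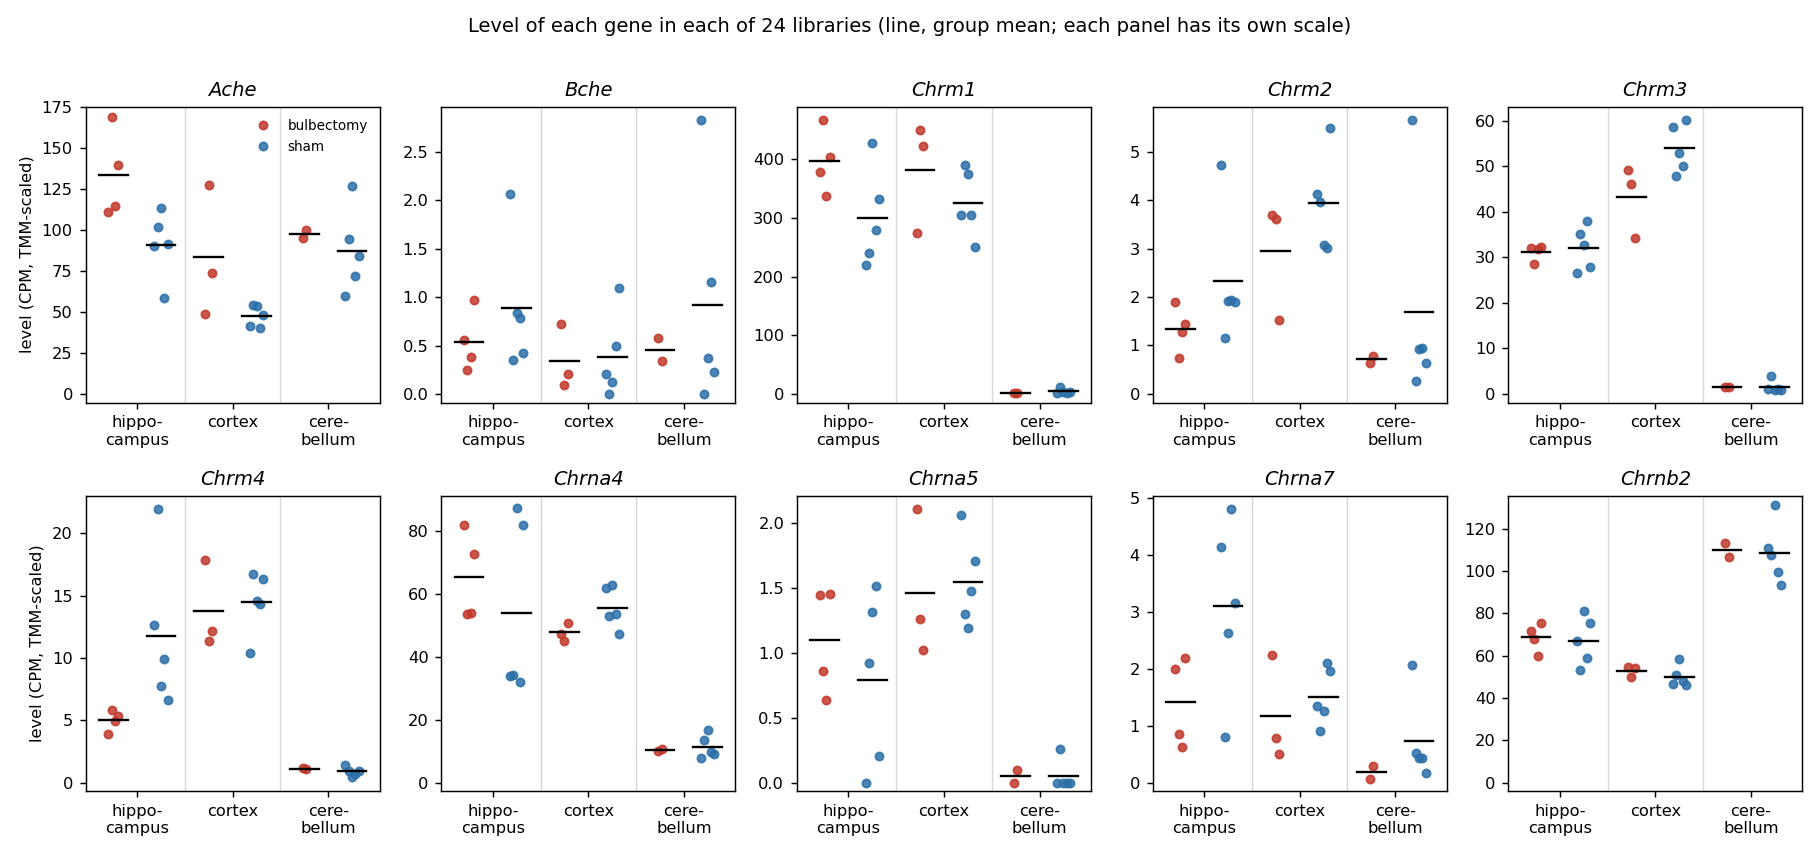
Level of each gene in each library (vertical axis, CPM, own scale per panel) by tissue (horizontal axis); red points are bulbectomy libraries, blue points sham libraries, and lines group means. Chrm1, Chrm3, Chrm4, Chrna4 and Chrna5 were near the bottom of the scale in cerebellum, Chrnb2 was highest there, and hippocampal Chrm4 was at most 5.88 CPM in the 4 bulbectomy libraries.

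Of the 2 proteins that anchor acetylcholinesterase, Prima1 (the membrane anchor of brain neurons) and Colq (the collagen tail known from the neuromuscular junction), neither passed the test after bulbectomy, and Colq was too low to be tested in hippocampus. Colq was lower in sham hippocampus than in sham cerebellum (log2 fold change -3.95 ± 0.41, adjusted p = 1.41e-06). It averaged 0.691 CPM in hippocampus, 0.758 CPM in cortex and 10.8 CPM in cerebellum. In cortex against cerebellum its log2 fold change was -3.71 ± 0.39 (adjusted p = 1.28e-06).

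Muscarinic receptors fall into classes by the G protein they use. Chrm1 and Chrm3 encode receptors that couple to Gq and phospholipase C, and Chrm2 and Chrm4 encode receptors that couple to Gi and lower cyclic AMP. After bulbectomy 0 of the 9 genes tested in hippocampus were called, against 1.55% of all 13985 genes tested. In cortex 0 of 9 were called (0.0202% of 14847 genes) and in cerebellum 0 of 8 (0.0131% of 15295 genes). At an unadjusted p under 0.05 in edgeR, 4 genes passed in hippocampus (Chrm4, Ache, Chrm1 and Chrna7), against 20.0% of all genes tested there. The counts were 1 in cortex (Ache), against 5.91% of all genes, and 0 in cerebellum, against 2.97%. DESeq2 called 1 gene in hippocampus and 0 in the other tissues, and limma voom called 1 gene in cortex and 0 elsewhere. The median change of the genes tested was 0.06 log2 units in hippocampus, -0.07 in cortex and -0.08 in cerebellum.

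Chrm4 (ENSMUSG00000040495, chromosome 2, 91927249 to 91928688) had the smallest p-value of the 10 genes in the hippocampus. Its levels were 3.89, 5.88, 4.95 and 5.33 CPM in bulbectomy libraries, against 12.7, 22.0, 7.77, 9.90 and 6.61 CPM in sham libraries. Every bulbectomy library lay below every sham library. Chrm4 was the 1 gene of the 9 whose groups did not overlap, against 9.48% of all genes tested and 5.42% counting only genes lower after bulbectomy. No gene of the 10 had separate groups in cortex (3.59% of all genes) or cerebellum (10.9%). The log2 fold change was -1.21 ± 0.35, with an unadjusted p of 0.00364 and an adjusted p of 0.0868 in edgeR. DESeq2 called Chrm4 (-1.22, adjusted p = 0.0213), as did the edgeR fit without sham 5 (-1.43, adjusted p = 0.0496). Taking out the dependence of fold changes on gene length and on GC content, an alternative chosen after the data were seen, also gave a call (-1.55, adjusted p = 0.0327). Over all genes these fits called 954 of 13985, 299 of 13827 and 481 of 13985, in that order, against 217 in the main fit. Over all alternatives the adjusted p of Chrm4 ranged from 0.0213 to 0.203.

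The highest Chrm4 levels were those of sham 1 and 2, the libraries high in striatal markers. Chrm4 is known as a receptor of striatal medium spiny neurons. Sham 3 to 5 also lay above every bulbectomy library. Without sham 1 and 2 the change in Chrm4 was -0.66 ± 0.27 (adjusted p = 0.199). Without sham 2 alone it was -0.83. All 11 striatal markers were lower in bulbectomy than in sham hippocampus by their fitted values, with a median log2 fold change of -2.55. Of these markers 0 were called, against 1.55% of all genes tested. The summed level of the 11 markers was 281.3 to 410.1 CPM in bulbectomy libraries, against 2761 and 3798 CPM in sham 1 and 2 and 169.2 to 287.7 CPM in sham 3 to 5. The part of striatal RNA in the difference that remained was not tested. In bulk tissue, fewer cells of a type and less RNA per cell cannot be told apart.

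**Figure D2:**
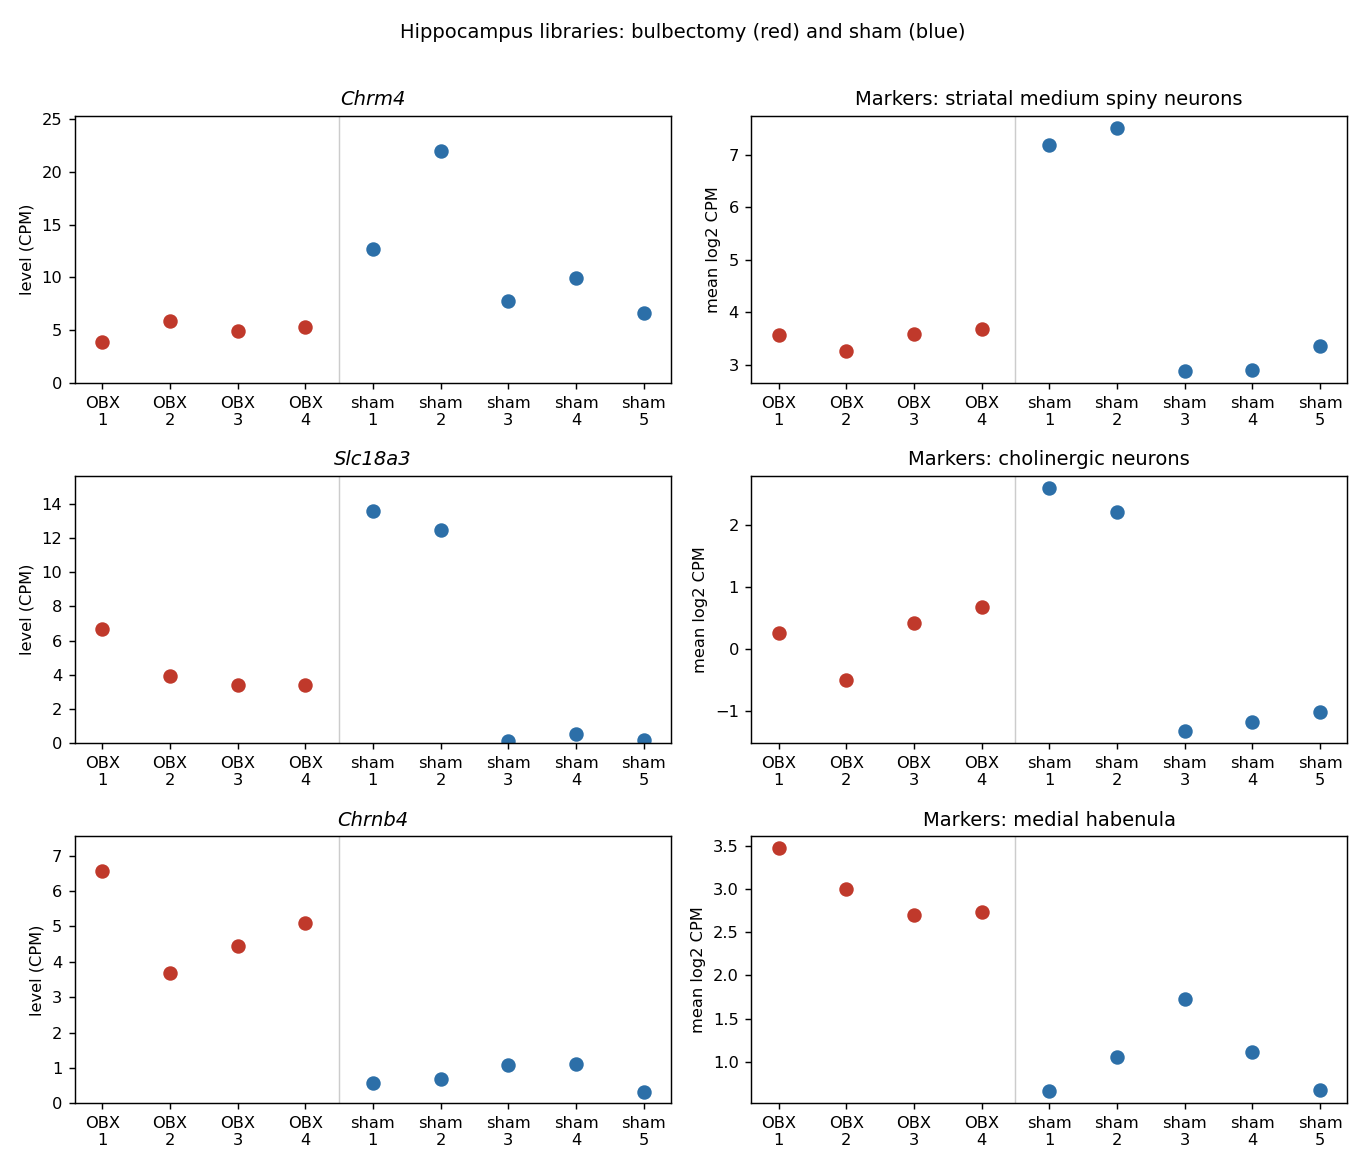
Hippocampus libraries, bulbectomy 1 to 4 (red) left of sham 1 to 5 (blue). The left panels give CPM of Chrm4, Slc18a3 and Chrnb4, and the right panels the mean log2 CPM of striatal, cholinergic neuron and medial habenula markers. Chrm4 and the striatal markers were highest in sham 1 and 2, and Chrnb4 and the habenula markers were higher in every bulbectomy library than in any sham library.

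In the cortex Chrm4 stood at 17.9, 11.4 and 12.2 CPM in bulbectomy libraries, against 10.4 to 16.7 CPM in sham libraries. The groups overlapped and the change was -0.07 ± 0.24, with an interval of -0.54 to 0.39. In the cerebellum Chrm4 was at 1.15 and 1.12 CPM after bulbectomy, against 0.50 to 1.45 CPM after sham surgery. The hippocampal change of Chrm4 minus its cortical change was -1.16 ± 0.44 (unadjusted p = 0.0141, adjusted p = 0.9998 in edgeR), and minus its cerebellar change -1.55 ± 0.52 (unadjusted p = 0.00653, adjusted p = 0.9999). No gene of 16564 passed these tests of a difference between tissues in edgeR (0%), so no difference in response was shown. At an unadjusted p under 0.05, 1 of the 10 genes passed for hippocampus against cortex (2.81% of all genes), 2 for hippocampus against cerebellum (3.09%) and 0 for cortex against cerebellum (1.67%). Over all genes DESeq2 called 3, 2 and 0 in these contrasts, and limma voom 1, 3 and 3.

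Chrm1 (ENSMUSG00000032773, chromosome 19, 8663789 to 8683587) encodes the most abundant muscarinic receptor of the forebrain. In the hippocampus it stood at 378.5, 465.9, 337.3 and 403.2 CPM in bulbectomy libraries, against 219.8, 240.8, 426.6, 278.6 and 331.6 CPM in sham libraries. Bulbectomy 2 exceeded every sham library, and the other 3 bulbectomy libraries lay in the upper part of the sham range. The log2 fold change of Chrm1 was 0.43 ± 0.19 (unadjusted p = 0.0410, adjusted p = 0.229 in edgeR), and 0.24 ± 0.18 without sham 1 and 2. In the cortex Chrm1 averaged 381.9 ± 94.8 CPM after bulbectomy (n = 3) and 325.1 ± 57.1 CPM after sham surgery (n = 5), a change of 0.21 ± 0.19.

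Chrm3 (ENSMUSG00000046159, chromosome 13, 9875486 to 10360847) was the steadiest muscarinic receptor of the hippocampus. It averaged 31.2 ± 1.76 CPM in bulbectomy libraries and 32.0 ± 4.83 CPM in sham libraries, with a log2 fold change of -0.02 ± 0.16 and an interval of -0.34 to 0.30. In the cortex Chrm3 stood at 49.1, 46.1 and 34.4 CPM in bulbectomy libraries, against 58.7, 48.0, 53.0, 50.1 and 60.1 CPM in sham libraries. Bulbectomy 2 and 4 lay below all sham libraries, and bulbectomy 1 exceeded only sham 2. The cortical change in Chrm3 was -0.33 ± 0.18 (adjusted p = 0.848 in edgeR).

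Chrm2 (ENSMUSG00000045613, chromosome 6, 36388084 to 36528414) encodes a receptor known as a presynaptic autoreceptor of cholinergic terminals. In the hippocampus it was at 1.89, 0.735, 1.27 and 1.45 CPM after bulbectomy, against 4.72, 1.16, 1.91, 1.93 and 1.89 CPM after sham surgery. Sham 1, the shallowest library, gave the highest value from 16 reads. The change in Chrm2 was -0.67 ± 0.46 in hippocampus, -0.42 ± 0.36 in cortex and -1.32 ± 1.19 in cerebellum. None passed the test, and the cerebellar estimate was 0.03 without cerebellum sham 1.

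**Figure D3:**
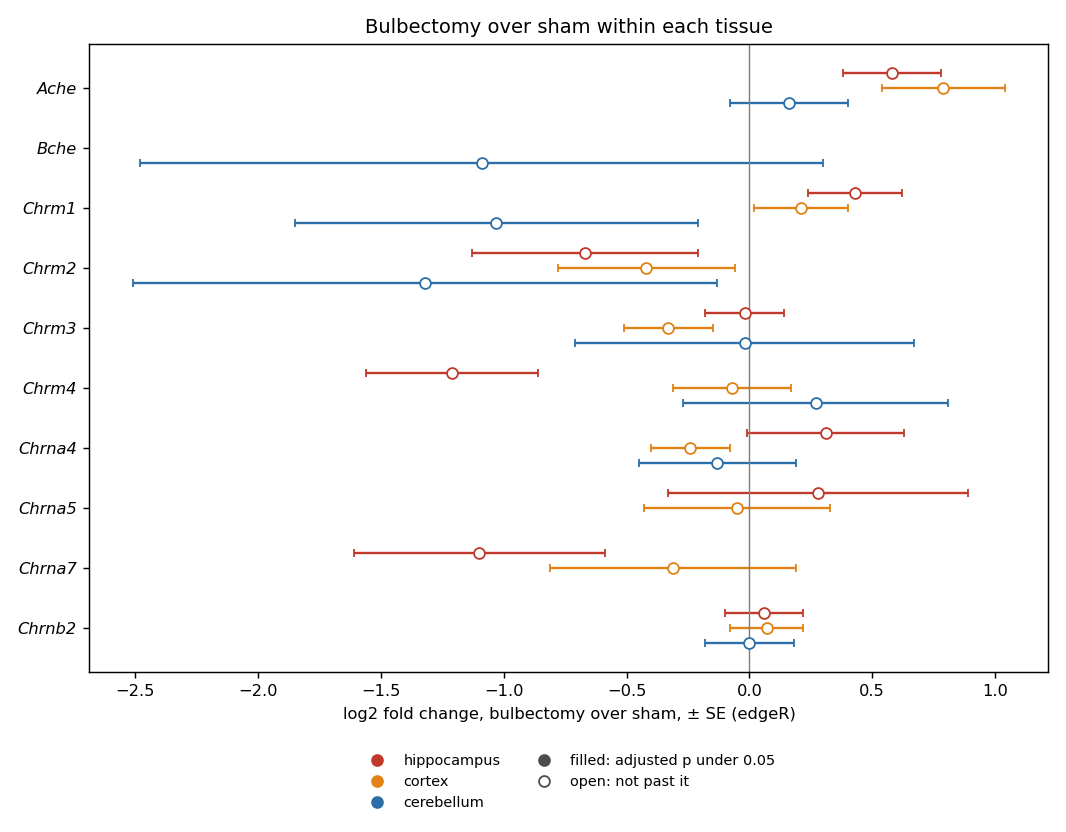
Log2 fold change of bulbectomy over sham (horizontal axis) with its SE for each gene, in hippocampus, cortex and cerebellum, from the edgeR fits. Open points did not pass an adjusted p of 0.05, which holds for all of them, and genes with no point did not pass the filter on low counts.

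Most of the 10 genes were called between sham forebrain and sham cerebellum. Of the 10 genes, 7 were called between sham hippocampus and sham cerebellum, against 28.4% of all 15142 genes tested, and 6 of the 7 were higher in hippocampus (15.5% of all genes). Between sham cortex and sham cerebellum 7 were called, against 34.7% of all genes, with 5 higher in cortex (16.8% of all genes). Chrna5, called in both comparisons, and Chrna7, called for hippocampus, did not pass the filter on low counts in the fit of the cerebellum libraries. They were tested here through their forebrain libraries, which favours a higher value there. The median log2 fold changes were 2.23 and 1.83 over the 10 genes. Between sham hippocampus and sham cortex 1 gene, Ache, was called, against 3.30% of all genes. The groups did not overlap for 5 genes against cerebellum in hippocampus (18.1% of all genes), for 7 in cortex (25.6%) and for 2 between hippocampus and cortex (6.80%).

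Chrm1, Chrm3 and Chrm4 were the most forebrain-weighted of the muscarinic genes. Chrm1 averaged 299.5 ± 82.8 CPM in sham hippocampus, 325.1 ± 57.1 CPM in sham cortex and 4.62 ± 4.48 CPM in sham cerebellum (SD, n = 5 each). Its log2 fold changes were 6.10 ± 0.49 for hippocampus over cerebellum (adjusted p = 9.27e-08) and 6.25 ± 0.49 for cortex over cerebellum (adjusted p = 6.03e-08). Of the cerebellar Chrm1 signal, 12.4 CPM was in sham 2, against 1.38 to 4.0 CPM in the other sham libraries. Without sham 2 the differences of Chrm1 grew to 6.85 and 7.0.

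Chrm3 averaged 32.0 ± 4.83, 54.0 ± 5.30 and 1.55 ± 1.32 CPM in sham hippocampus, cortex and cerebellum. Its differences from cerebellum were 4.48 ± 0.36 in hippocampus (adjusted p = 8.55e-08) and 5.25 ± 0.37 in cortex (adjusted p = 1.59e-08), and 5.13 and 5.90 without cerebellum sham 2. Every sham hippocampus library lay below every sham cortex library for Chrm3, but the difference of -0.77 ± 0.30 missed the threshold in edgeR (adjusted p = 0.229). It passed in limma voom (-0.78, adjusted p = 0.00249).

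Chrm4 averaged 11.8 ± 6.14, 14.5 ± 2.52 and 0.912 ± 0.353 CPM in sham hippocampus, cortex and cerebellum. Its differences from cerebellum were 3.76 ± 0.37 (adjusted p = 7.72e-07) and 4.07 ± 0.37 (adjusted p = 2.80e-07), and hippocampus and cortex were not told apart (-0.31 ± 0.32, interval -0.93 to 0.31). Without hippocampus sham 1 and 2 the hippocampus-to-cortex value of Chrm4 was -0.87 ± 0.29 (adjusted p = 0.161).

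The cerebellar level of Chrm2 was set largely by 1 library. Chrm2 averaged 2.32 ± 1.38 CPM in sham hippocampus and 3.93 ± 1.0 CPM in sham cortex. In sham cerebellum it stood at 5.65 CPM in sham 1 and 0.261 to 0.943 CPM in sham 2 to 5. With all libraries the cortex-to-cerebellum difference of Chrm2 was 1.30 ± 0.61 (adjusted p = 0.113). Without cerebellum sham 1 it was 2.55 (adjusted p = 7.54e-05), and the hippocampus-to-cerebellum difference was 1.69 (adjusted p = 0.00456) in place of 0.44.

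**Figure D4:**
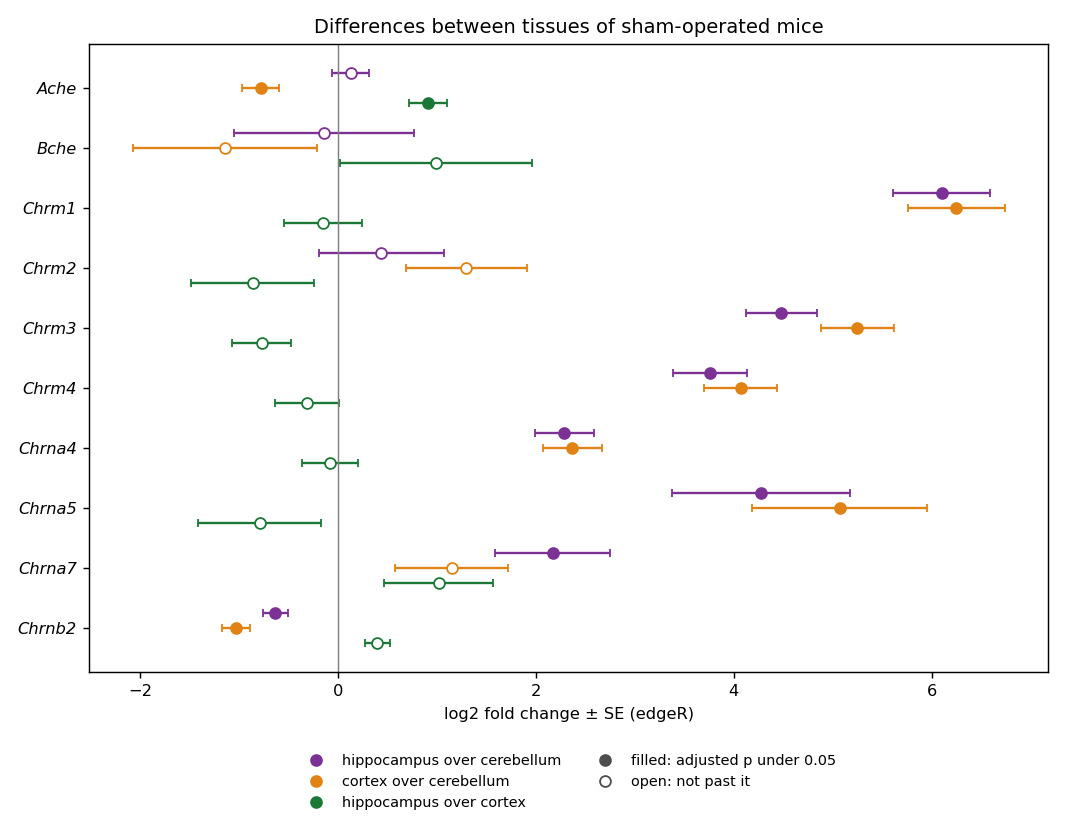
Log2 fold changes with SE between tissues of sham-operated mice, 3 comparisons per gene; filled points passed an adjusted p of 0.05 in edgeR. Chrm1, Chrm3, Chrm4, Chrna4 and Chrna5 lay right of 0 in both comparisons with cerebellum and Chrnb2 left of 0.

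Shares of the summed muscarinic level per kilobase show the makeup within a tissue. Chrm1 took 87.4 ± 1.44% in bulbectomy hippocampus (n = 4) and 76.3 ± 9.22% in sham hippocampus (n = 5). Chrm4 took 5.0 ± 0.672% in bulbectomy hippocampus and 14.3 ± 8.08% in sham hippocampus, and its 4.06 to 5.66% after bulbectomy did not reach the 7.04 to 26.2% of sham libraries. In sham 3 to 5 alone, the libraries without raised striatal markers, Chrm4 took 8.95 ± 2.85% and Chrm1 82.2 ± 5.08% (n = 3). In the cortex Chrm4 took 13.2 ± 5.67% after bulbectomy (n = 3) and 14.6 ± 2.80% after sham surgery (n = 5). In the cerebellum the whole muscarinic level was low, at 1.49 CPM per kb after bulbectomy and 1.87 ± 0.906 CPM per kb after sham surgery, against 59.9 ± 10.6 in sham hippocampus and 69.5 ± 8.51 in sham cortex. There Chrm4 held 51.8 and 53.6% in bulbectomy libraries and 20.4 to 44.4% in sham libraries. The exon length of Chrm4 used here is the 1440 bases of its coding exon, so its shares depend on that annotation.

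Genes that act with the muscarinic receptors were taken as a list of 20 G proteins, effectors and regulators. After bulbectomy 0 of 20 were called in hippocampus, 0 of 20 in cortex and 0 of 19 tested in cerebellum. Over all genes 1.55%, 0.0202% and 0.0131% were called in these tissues. At such shares the absence of calls says little about the list. In sham hippocampus against sham cerebellum 6 were higher and 3 lower, against 28.4% of all genes called in either direction. Between sham cortex and sham cerebellum 8 were higher and 3 lower, against 34.7% of all genes. Without cerebellum sham 1 and 2 these counts were 8 higher and 4 lower, and 10 higher and 2 lower. Of all 15672 genes tested, 5155 and 6836 were called in those 2 comparisons. Rgs4, a protein that shortens Gq and Gi signals, was 3.54 ± 0.23 higher in hippocampus than in cerebellum (253.6 and 22.8 CPM, adjusted p = 8.13e-09). Kcnq5, a subunit of the potassium channels that muscarinic receptors close, was 5.69 ± 0.47 higher (26.0 and 0.530 CPM, adjusted p = 1.11e-07). Kcnq3, a subunit of the same channels, was also higher, by 2.37 ± 0.40 (35.9 and 7.24 CPM, adjusted p = 0.000222).

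The members of this list that were lower in hippocampus belong to the phospholipase C route, and Itpr1 and Plcb4 are known from Purkinje cells of the cerebellum. Itpr1, the calcium release channel opened by inositol trisphosphate, had a log2 fold change of -2.70 ± 0.43 (263.3 and 1803 CPM, adjusted p = 0.000126). Plcb3 and Plcb4, phospholipases C, had -1.28 ± 0.19 and -2.63 ± 0.59. After bulbectomy, hippocampal Itpr1 stood at 66.1 to 93.4 CPM, against 109.7 to 537.6 CPM in sham libraries, and did not pass (-1.71 ± 0.39, adjusted p = 0.0567 in edgeR). Without hippocampus sham 1 and 2 Itpr1 passed as the 1 gene called of the 20 (-1.18 ± 0.24, adjusted p = 0.0269 in edgeR). Over all genes 348 of 14013 were called in that fit. In the cerebellum Itpr1 passed after bulbectomy without cerebellum sham 1 and 2 (-1.10 ± 0.21, adjusted p = 0.0438 in edgeR). It was again the 1 gene called of its list, and 61 of 15188 genes were called in that fit. In cortex against cerebellum these 3 genes were called in the same direction, with -2.15 ± 0.42 for Itpr1, -1.58 ± 0.19 for Plcb3 and -1.49 ± 0.56 for Plcb4. Without cerebellum sham 1 and 2 the value of Plcb4 was -0.62 ± 0.31 and no longer passed (adjusted p = 0.115).

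Nicotinic receptors are rings of 5 subunits. Chrna4 and Chrnb2 together form the main high-affinity receptor of the brain, Chrna5 encodes an accessory subunit of it, and Chrna7 forms receptors of its own kind. In the hippocampus Chrna4 (ENSMUSG00000027577, chromosome 2, 181018380 to 181043546) was at 81.8, 53.5, 53.8 and 72.7 CPM in bulbectomy libraries, against 33.9, 34.1, 87.2, 31.9 and 81.8 CPM in sham libraries. The sham libraries split into 3 low and 2 high values around the bulbectomy values. The log2 fold change of Chrna4 was 0.31 ± 0.32, and 0.02 ± 0.33 without sham 1 and 2. The markers of thalamus followed the same split. They averaged 4.60 to 5.31 log2 CPM in bulbectomy hippocampus, against 4.28, 3.02 and 3.79 in sham 1, 2 and 4 and 4.83 and 4.82 in sham 3 and 5. Their 8 genes summed to 304.5 to 525.8 CPM after bulbectomy and 148.1 to 464.4 CPM after sham surgery, with none at 0. Their part in the Chrna4 levels was not tested. In the cortex Chrna4 averaged 47.7 ± 2.91 CPM after bulbectomy and 55.6 ± 6.53 CPM after sham surgery, a change of -0.24 ± 0.16 (adjusted p = 0.875 in edgeR).

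Chrnb2 (ENSMUSG00000027950, chromosome 3, 89746195 to 89764632) showed no detectable difference in any tissue after bulbectomy. Its changes were 0.06 ± 0.16 in hippocampus (interval -0.24 to 0.37), 0.07 ± 0.15 in cortex (-0.22 to 0.36) and 0.00 ± 0.18 in cerebellum (-0.36 to 0.36). Its levels averaged 68.7 ± 6.62 and 67.2 ± 11.5 CPM in bulbectomy and sham hippocampus. In cerebellum they averaged 110.0 ± 4.50 CPM after bulbectomy (n = 2) and 108.4 ± 14.5 CPM after sham surgery (n = 5). Chrnb2 shares 16.3% of its exon bases with Adar on the opposite strand, and the sources used here do not give the strand setting of the counts.

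The partner subunits Chrna4 and Chrnb2 went opposite ways between tissues. In sham mice Chrna4 averaged 53.8 ± 28.1 CPM in hippocampus, 55.6 ± 6.53 CPM in cortex and 11.5 ± 3.67 CPM in cerebellum. Its log2 fold changes over cerebellum were 2.29 ± 0.30 in hippocampus (adjusted p = 1.64e-05) and 2.37 ± 0.30 in cortex (adjusted p = 9.28e-06). Chrnb2 averaged 67.2 ± 11.5, 50.1 ± 4.96 and 108.4 ± 14.5 CPM in the same order. It was lower than in cerebellum by -0.63 ± 0.13 in hippocampus (adjusted p = 0.00191) and by -1.03 ± 0.14 in cortex (adjusted p = 1.54e-05). For both genes and both comparisons the groups did not overlap.

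Per kilobase of exon, the level of Chrna4 divided by that of Chrnb2 was 1.28 ± 0.478 in sham hippocampus, 1.86 ± 0.199 in sham cortex and 0.175 ± 0.0390 in sham cerebellum (SD, n = 5 each). The highest cerebellar ratio, 0.214, lay below the lowest forebrain ratio, 0.845. In the cortex the ratio was 1.44 to 1.57 in the 3 bulbectomy libraries, against 1.71 to 2.20 in the 5 sham libraries. The cortical groups did not overlap, but the ratio was chosen after values were seen and no test was made of it. In the hippocampus it was 1.58 ± 0.246 after bulbectomy (n = 4) and 1.28 ± 0.478 after sham surgery, where sham 1, 2 and 4 lay at 0.845 to 1.07 and sham 3 and 5 at 1.79 and 1.81. That is the split of Chrna4 and of the thalamus markers given above, whose part in the ratio was not tested either.

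**Figure D5:**
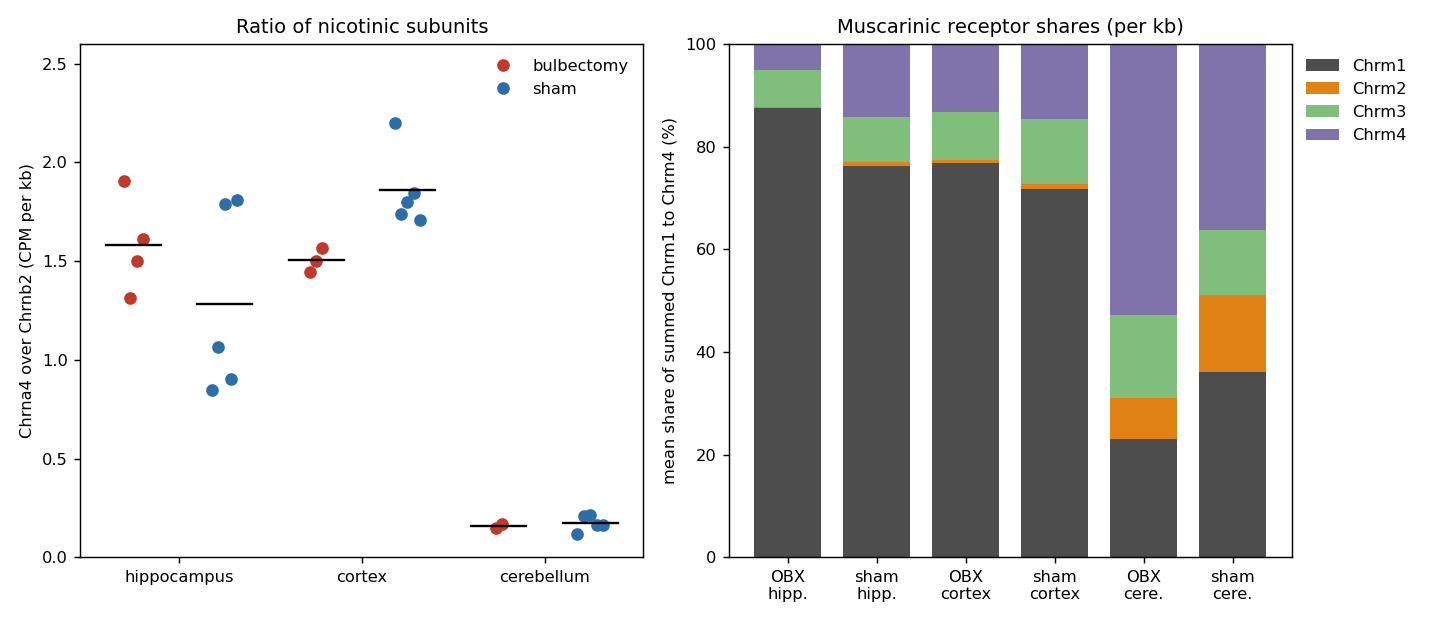
Left, the level per kilobase of Chrna4 divided by that of Chrnb2 in each library, with lines at group means; right, the mean share of Chrm1 to Chrm4 in their summed level per kilobase. In each tissue bulbectomy is left of sham. The ratio was at or below 0.214 in all cerebellum libraries and at or above 0.845 elsewhere, and the Chrm4 share in hippocampus averaged 5.0% after bulbectomy and 14.3% after sham surgery, or 8.95% in sham 3 to 5.

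Chrna7 (ENSMUSG00000030525, chromosome 7, 63098692 to 63212569) was a low gene, with 5 to 34 reads in all forebrain libraries but the deepest. In the hippocampus it stood at 2.0, 0.857, 0.634 and 2.18 CPM in bulbectomy libraries, against 4.13, 0.809, 2.63, 4.80 and 3.15 CPM in sham libraries. All sham libraries but sham 2 exceeded every bulbectomy library. The log2 fold change of Chrna7 was -1.10 ± 0.51 (unadjusted p = 0.0484, adjusted p = 0.247 in edgeR), and -1.30 ± 0.46 (adjusted p = 0.142) without sham 1 and 2. In the cortex the change was -0.31 ± 0.50. It ranged from -1.26 without bulbectomy 1 to 0.01 without bulbectomy 4, so its direction rested on single libraries.

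Among sham tissues Chrna7 averaged 3.10 ± 1.54 CPM in hippocampus, 1.51 ± 0.501 CPM in cortex and 0.726 ± 0.759 CPM in cerebellum. It was 2.17 ± 0.58 log2 units higher in hippocampus than in cerebellum (adjusted p = 0.00902). In this fit Chrna7 passed the filter on low counts through its forebrain libraries. Cerebellum sham 1 held 2.06 CPM of Chrna7, against 0.174 to 0.521 CPM in sham 2 to 5. Without it the difference was 3.08 for hippocampus, and that for cortex was 2.04 (adjusted p = 0.00255) in place of 1.15 ± 0.57 (adjusted p = 0.135).

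Chrna5 (ENSMUSG00000035594, chromosome 9, 54980880 to 55007779) gave few reads, 0 to 32 per library apart from 250 in the deepest. In the hippocampus it was at 0.634 to 1.45 CPM in bulbectomy libraries, against 0 to 1.52 CPM in sham libraries, a change of 0.28 ± 0.61. In the cortex it was at 1.02 to 2.11 CPM after bulbectomy and 1.20 to 2.06 CPM after sham surgery, a change of -0.05 ± 0.38. In the cerebellum it had 0 and 2 reads in the bulbectomy libraries, and 3 reads in sham 2 with 0 in the other sham libraries. Pooled over sham libraries, 271 hippocampal and 108 cortical Chrna5 reads stood against 3 cerebellar reads. Scaled for depth, the ratio was 33.2 (95% interval 11.2 to 162) for hippocampus and 36.0 (11.99 to 177) for cortex, counting error only, and 250 of the hippocampal reads were from sham 4. Without that library the hippocampal ratio was 16.8 (5.0 to 87.8), from 21 reads. The edgeR test over libraries gave adjusted p-values of 0.00170 and 0.000266. In that fit Chrna5 passed the filter on low counts only through forebrain libraries. The filter thus favoured a higher forebrain value, and these p-values are given as a description.

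Ordered by level per kilobase in sham hippocampus, Chrm1 came first (46.2 ± 12.8 CPM per kb), followed by Ache (19.7 ± 4.40), Chrna4 (10.7 ± 5.60), Chrm4 (8.19 ± 4.26), Chrnb2 (8.02 ± 1.38) and Chrm3 (5.12 ± 0.772). Chrna7, Chrm2, Chrna5 and Bche followed with 0.689, 0.384, 0.254 and 0.132 CPM per kb. Over libraries, neighbours in this order from Ache to Chrnb2 overlapped, while the range of Chrm1 lay above that of Ache, and the range of Chrm3 below that of Chrnb2. The place of Chrm4 above Chrnb2 rested on sham 1 and 2. In sham 3 to 5 Chrm4 stood at 5.40, 6.88 and 4.59 CPM per kb, below Chrnb2 at 9.70, 7.02 and 9.01. In sham cerebellum the order was different, with Ache (18.9 ± 5.55) and Chrnb2 (12.9 ± 1.73) at the top, Chrna4 at 2.28 ± 0.731 and all other genes under 1 CPM per kb on average. The libraries of Ache and Chrnb2 overlapped there.

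Proteins that assemble or modulate nicotinic receptors were followed as a list of 10 genes. After bulbectomy 0 of 10 were called in any tissue, against 1.55%, 0.0202% and 0.0131% of all genes in hippocampus, cortex and cerebellum. In sham hippocampus against sham cerebellum 4 were higher and 1 lower (28.4% of all genes were called), and between sham cortex and sham cerebellum 5 were higher and 2 lower (34.7%). Without cerebellum sham 1 and 2 the counts were 3 higher and 3 lower for hippocampus, and 5 higher and 3 lower for cortex. Of all 15672 genes tested, 5155 and 6836 were called in those comparisons. Ly6h and Lypd1, membrane-anchored relatives of snake toxins that bind nicotinic receptors, were 3.45 ± 0.28 (adjusted p = 1.05e-07) and 2.47 ± 0.25 (adjusted p = 1.11e-06) higher in hippocampus than in cerebellum. Tmem35a, the chaperone also called NACHO, was lower there, with a log2 fold change of -0.43 ± 0.13 (48.5 and 68.5 CPM, adjusted p = 0.0185). Without hippocampus sham 1 and 2 the value of Tmem35a was -0.39 ± 0.14 and no longer passed (adjusted p = 0.0636).

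Of a list of 13 genes that holds the other nicotinic subunits and Chrm5, Chrnb4 and Chrna3 were the 2 tested in hippocampus after bulbectomy. Both passed the filter on low counts through their bulbectomy libraries. The filter thus favoured a rise among the genes tested, and their p-values are given as a description. Chrnb4 encodes a subunit that marks the medial habenula, a nucleus next to the hippocampus. It was at 6.56, 3.67, 4.44 and 5.09 CPM in bulbectomy libraries, against 0.590, 0.694, 1.08, 1.12 and 0.315 CPM in sham libraries. Every bulbectomy library lay above every sham library, and Chrnb4 rose by 2.63 ± 0.39 on the log2 scale (adjusted p = 0.00656 in edgeR), and by 2.52 ± 0.44 without sham 1 and 2 (adjusted p = 0.00932). Chrna3, its partner subunit, stood at 5.89, 1.96, 1.65 and 1.57 CPM against 0 to 1.20 CPM and did not pass (2.45 ± 0.70, adjusted p = 0.0859). The habenula markers, which include both genes, averaged 2.70 to 3.47 log2 CPM in bulbectomy hippocampus and 0.66 to 1.73 in sham hippocampus. Of 7 tested markers 6 were higher and 4 called, against 51.63% higher and 1.55% called over all genes. Chrnb4 and Chrna3 are among those tested, so the filter favoured these counts too. The summed level of the 8 markers was 160.1 to 213.4 CPM after bulbectomy and 60.9 to 107.0 CPM after sham surgery, with 2 markers at 0 in sham 1 and 1 at 0 in sham 5. Their part in the Chrnb4 difference was not tested.

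Genes of acetylcholine synthesis, storage and uptake were taken as a list of 8, of which Chat, Slc5a7 and Slc18a3 mark cholinergic cells. Chat, which makes acetylcholine, was at 0 to 1.09 CPM in bulbectomy hippocampus and at 6.49, 2.43, 0, 0.115 and 0.210 CPM in sham 1 to 5. Slc5a7, the choline transporter of cholinergic terminals, was at 0 to 0.381 CPM after bulbectomy and at 1.48 and 2.31 CPM in sham 1 and 2, against 0 to 0.127 CPM in sham 3 to 5. Slc18a3 was at 6.67, 3.92, 3.43 and 3.39 CPM after bulbectomy, against 13.6, 12.5, 0.120, 0.515 and 0.210 CPM after sham surgery. The high values of all 3 genes in the sham group thus came from sham 1 and 2, and for Slc18a3 the bulbectomy libraries lay between these and sham 3 to 5. With all libraries Slc18a3 had a fitted log2 fold change of -0.17 after bulbectomy. Without sham 1 and 2 its direction turned, with a fitted value of 3.60 ± 0.52. Those 2 libraries held its highest levels, so leaving them out set this turn and makes no test of it. The habenula markers were also higher in every bulbectomy library, and their part in the Slc18a3 values was not tested. With all libraries, 0 of 6 tested genes of the list were called in hippocampus, 0 of 6 in cortex and 0 of 5 in cerebellum. The shares over all genes were 1.55%, 0.0202% and 0.0131%.

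Between sham tissues 2 of the 6 tested genes of this list were called for hippocampus against cerebellum, against 28.4% of all genes tested. Slc18a3 was 4.54 ± 1.23 higher in hippocampus (adjusted p = 0.0103), where sham 1 and 2 held 13.6 and 12.5 CPM and the other hippocampus sham libraries at most 0.515 CPM. Without those 2 libraries the difference of Slc18a3 was 0.64 ± 0.88 and no longer passed (adjusted p = 0.668). Chka, a choline kinase, had a log2 fold change of -1.08 ± 0.13 (24.4 and 54.3 CPM, adjusted p = 8.01e-06). Slc44a1, a choline transporter found in many cell types, was 0.85 ± 0.12 higher in hippocampus than in cortex (77.2 and 42.3 CPM, adjusted p = 0.00153).

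For each of the 10 genes, the genes with the most similar levels over the 24 libraries were listed. For Chrm1 they were Grasp, Ctxn1 and Icam5, with Pearson r of 0.996, 0.995 and 0.994 of log2 CPM. After group means were taken out these were 0.888, 0.873 and 0.912. For Chrm3 they were Chn1, Kcnv1 and Camk2a (0.990, 0.988 and 0.987), and for Chrm4 Hipk4, Fbxl16 and Psd (0.972, 0.969 and 0.961). Within groups the r was lower, at 0.623, 0.697 and 0.465 for Chrm3 and 0.63, 0.39 and 0.43 for Chrm4. For Chrna4 they were Adgrb2, Lrfn2 and Snph (0.971, 0.968 and 0.967), and for Chrnb2 Cntn2, Calb2 and Hsd11b1 (0.968, 0.955 and 0.955). Their r within groups was 0.754 to 0.788 and 0.53 to 0.75. Ache had looser neighbours, Gamt, Arsa and Pomgnt2 (0.898, 0.879 and 0.869; within groups 0.804, 0.770 and 0.772). The other members had the following nearest genes: Robo2 for Chrm2 (0.938), Ntn5 for Chrna5 (0.913), Garem1 for Chrna7 (0.889) and Anln for Bche (0.786), with within-group values of 0.893, 0.673, 0.734 and 0.824. These libraries share 3 tissues and differ in depth, so the values describe a pattern and carry no p-value.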

How the data were processed

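Reads from polyA-selected, strand-marking libraries (NEBNext Ultra II Directional, single-end reads, per the labels' protocols) were made into raw gene counts by the authors before deposit. The submitters' processing notes name Trimmomatic, STAR, featureCounts and the mm10 build. Not given in the sources used here were versions, annotation release and strand setting. Of 55487 identifiers, 55227 matched GENCODE M21, which gave symbols, coordinates and exon lengths, and 12 rows per library of assignment totals were left out.

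The deposited counts were tested with edgeR 4.0.16 (quasi-likelihood test, TMM scaling, filterByExpr, R 4.3.3) and p-values were adjusted by Benjamini-Hochberg over all genes tested, with calls at 0.05. Bulbectomy was fitted against sham within each tissue, the 15 sham libraries together for tissues, and all 24 libraries for differences in response. The SE of an edgeR value is its absolute log2 fold change divided by the square root of the test's F statistic. Intervals are 1.96 SE, a normal quantile, so with few libraries they are narrower than the test implies. DESeq2 1.42.0 and limma 3.58.1 voom were alternatives. Levels are CPM with TMM over all libraries, and neighbours use log2 CPM with a prior count of 2. Fits were tested on simulated data with known changes. Of 2-fold changes, 34.9% were called in the right direction in hippocampus, 28.4% in cortex and 4.48% in cerebellum after bulbectomy. Of 4-fold changes these shares were 89.2%, 82.8% and 27.7%. Many changes of 2-fold or less would thus go uncalled.

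Named genes are the 10 members, up to 3 neighbours each, and the called genes of smallest p in each list with Chat, Slc18a3 and Slc5a7. Chrna3, Prima1, Kcnq3 and the hippocampal bulbectomy values of Itpr1 were named after their values were seen. Members and lists were chosen with earlier results of these data known. Same-numbered sham libraries of hippocampus and cerebellum deviated together (r 0.25 to 0.44 in 5 of 5 pairs), and a replicate block left the 7 calls there at 7. Of 10 members, 9 matched the RefSeq promoter table.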

Additional observations from a re-analysis of the deposited data

Results flagged for a closer look

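In 8 of 40 groups checked, 1 library stood far from the rest of its group, and chance flags about 1 in 20 groups. In the hippocampus sham 1 was the high library for Bche, with 2.07 CPM against 0.347 to 0.837 CPM in the other sham libraries, and for Chrm2, with 4.72 against 1.16 to 1.93 CPM. It was the shallowest library. In bulbectomy hippocampus, replicate 2 was low for Chrm3, with 28.5 CPM against 31.7 to 32.2 CPM, a narrow spread.

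In the cerebellum sham 1 was high for Chrm2, with 5.65 CPM against 0.261 to 0.943 CPM in the other sham libraries, and for Chrna7, with 2.06 against 0.174 to 0.521 CPM. Cerebellum sham 2 was high for Chrm1, with 12.4 CPM against 1.38 to 4.0 CPM, for Chrm3, with 3.91 against 0.869 to 1.02 CPM, and for Chrna5, with 0.261 CPM from 3 reads against 0 in the other sham libraries. Sham 1 and 2 were the cerebellum libraries with the highest cortical layer markers. Sham 1 was also the lowest cerebellum library for Chrm1, at 1.38 CPM. It was the highest for cerebellar granule and Purkinje cell markers, at 8.88 and 8.77 log2 CPM. The part of any cell type in these values was not tested.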

How the results depend on the processing

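Of the 10 genes, the number called after bulbectomy in hippocampus was 0 in edgeR, 1 with DESeq2, 1 with the trend over length and GC removed and 0 to 1 when single libraries were left out. In cortex it was 0 in edgeR, 1 with limma voom and 0 to 1 with single libraries left out. Between sham hippocampus and sham cortex it was 1 in edgeR, 3 with limma voom and 0 without hippocampus sham 1 and 2. The trend over length and GC, the fits without cerebellum sham 1 and 2 and the fits of listed genes without pairs of libraries were chosen after seeing the data. The trend was not run for differences in response between tissues.

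Under the replicate block 0, 0 and 0 of the members were called after bulbectomy. Between sham hippocampus and the other tissues 1 and 7 were called. Between sham cortex and sham cerebellum 9 were called, where Chrm2 (1.91, adjusted p = 0.00496) and Chrna7 (1.38, adjusted p = 0.0417) were added. Calls over all genes rose there too, to 6517 of 15142 under the block, against 5251 in the main fit. Between sham hippocampus and sham cerebellum all-gene calls were 5304 of 15142 under the block, against 4296 in the main fit. Same-numbered libraries exceeded a correlation of 0.1 in 0 of 4 hippocampal, 2 of 3 cortical and 2 of 2 cerebellar bulbectomy and sham pairs. The cerebellar values were 0.32 and 0.23, between libraries that differ in surgery. Sham pairs of cortex with either tissue exceeded 0.1 in 4 of 5.

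Over all genes, calls after bulbectomy in hippocampus were 217 in edgeR, 954 with DESeq2, 481 with the trend removed, 76 with the block, 348 without sham 1 and 2, and 30 to 477 with single libraries left out. In cortex they were 3, against 39 with DESeq2, 252 with limma voom, 7 with RLE scaling, 24 with no filter, 13 with the block, 7 with the trend removed, 5 in the fit of all libraries and 1 to 573 with single libraries left out. In cerebellum they were 2, against 12 with DESeq2, 67 with limma voom, 0 with the block, 61 without cerebellum sham 1 and 2 and 0 to 36 with single libraries left out. Between sham hippocampus and cortex they were 500, against 895 with DESeq2, 1536 with limma voom, 765 with the block, 921 with the trend removed and 768 in the fit of all libraries. Between sham cortex and cerebellum they were 5251, against 9030 with limma voom.

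These directions turned, with single libraries left out where a range is given. In hippocampus after bulbectomy Chrm3 was 0.02 with limma voom, 0.10 with the trend removed and -0.14 to 0.03 with single libraries left out, Chrna5 -0.03 to 0.47, and Chrnb2 -0.02 without sham 1 and 2 and -0.02 to 0.11. In cortex, leaving out single libraries gave -0.34 to 0.04 for Chrm4, -0.46 to 0.13 for Chrna5 and -1.26 to 0.01 for Chrna7. In cerebellum Bche was 0.47 with limma voom. Chrm2 was 0.04 with limma voom and -1.60 to 0.03 with single libraries left out. Chrm3 was 0.49 with limma voom, 0.71 without sham 1 and 2, 0.03 in the fit of all libraries and -0.18 to 0.63. Chrm4 was -0.13 with the block and -0.06 with the trend removed, and Chrna4 -0.22 to 0.01. Chrnb2 was -0.02 with DESeq2, -0.02 with RLE scaling, -0.06 with the block and -0.06 to 0.07. Between sham hippocampus and cortex Chrm1 was 0.04 without sham 1 and 2, and Chrna4 0.06 with limma voom, 0.21 without sham 1 and 2 and -0.31 to 0.06. Between sham hippocampus and cerebellum Bche was 1.16 with limma voom, 0.32 with the block, 0.21 with the trend removed, 0.51 without cerebellum sham 1 and 2 and -0.51 to 0.89. The cause was not tested.

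Bche, Chrna5 and Chrna7 had too few reads per library for differences near their errors to be detectable, and the cerebellum had 2 bulbectomy libraries.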
